A study of Mus musculus with 32 samples.

Results

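A set of 10 regulators of transcription known from the mouse testis are described here, namely Mybl1, Mybl2, Tcfl5, Sox30, Ovol1, Ovol2, Tbpl1, Taf7l, Taf4b and Crem, during the first wave of spermatogenesis and in adult spermatocytes. The 10 genes were taken by symbol, matched to the gene identifiers of the GENCODE mouse annotation, and all 10 were among the 20368 genes of the juvenile gene table. Poly(A) RNA was sequenced from germ cells of the testes of 28 individual C57BL/6J male mice, 3 at 8 days post partum (dpp) and 5 each at 10, 12, 14, 16 and 18 dpp. The juvenile cells were digested from seminiferous tubules, washed to remove interstitial cells and filtered through mesh, with no sorting by stage. A further 4 adult samples were pachytene and diplotene spermatocytes of 9-week-old C57BL/6J males, each pooled from several mice and enriched by sedimentation at unit gravity. None of the mice carried a mutation or received a treatment, so age was the variable compared among the juvenile mice. The adult samples differed from these in age, pooling and enrichment together.

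Transcription in male germ cells relies on factors that somatic cells use little or not at all. MYBL1 (A-MYB) is known as the master activator of the pachytene program, including piRNA precursors and meiotic cyclin A1, and TCFL5 is a basic helix-loop-helix factor that works beside it. TBPL1, TAF7L and TAF4B are germ cell counterparts of the general factors TBP, TAF7 and TAF4, while CREM, with SOX30, is needed for the genes of the spermatid.

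The members formed 2 groups. 7 genes (Mybl1, Tcfl5, Sox30, Ovol1, Ovol2, Tbpl1 and Crem) were higher at 18 dpp than at 8 dpp, by 1.87 to 4.30 on the log2 scale of TPM + 1, where TPM is a transcript abundance scaled to length and library. 3 genes (Mybl2, Taf7l and Taf4b) were lower, by 0.25 to 1.04 on that scale, where the smallest difference, that of Taf4b, did not pass with median-of-ratios scaling (adjusted p = 0.458). Of the steps between neighbouring ages, the earliest at which a member passed as higher was that to 12 dpp, in Sox30 and Mybl1. The other 5 first passed at the step to 16 dpp. Slower rises across several steps were not tested. From 10 to 14 dpp the mean of Tcfl5 went from 28.7 to 47.1 TPM and that of Tbpl1 from 39.1 to 49.7 TPM. Crem went from 16.9 to 19.0 TPM, Ovol1 from 1.76 to 2.43 TPM and Ovol2 from 1.29 to 0.82 TPM. In the adult spermatocytes the 7 rising genes stood at 43.5 to 729 TPM on average, and the 3 falling genes at 2.10 to 5.37 TPM.

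Promoter sequence was read for short motifs of the factors described here. RefSeq windows (GRCm38.p6) of 300 bases, 250 before and 50 from the annotated start on, matched 6 of the 10 symbols: Mybl2, Tcfl5, Taf7l, Tbpl1, Sox30 and Ovol2. A set of 5 motifs was searched on both strands: AACNGNC, bound by MYB proteins; TGACGTCA and its core TGACG, bound by CREM and its relatives; CACGTG, the E-box of basic helix-loop-helix factors; and TATAAA, the TATA box. TGACG lies within TGACGTCA, so each full site also counts as a TGACG match. Here 4 windows are printed 5′ to 3′ on the gene's own strand. Tcfl5 and Ovol2 were taken because each holds the MYB motif. Sox30 was taken because it was among the first to pass as higher and holds none of the 5. Taf7l was taken because it fell and holds the E-box. Capitals mark the MYB motif, read on the opposite strand, in Tcfl5 and Ovol2, and CACGTG in Taf7l.
Tcfl5 (chr2:180642642-180642941, minus strand): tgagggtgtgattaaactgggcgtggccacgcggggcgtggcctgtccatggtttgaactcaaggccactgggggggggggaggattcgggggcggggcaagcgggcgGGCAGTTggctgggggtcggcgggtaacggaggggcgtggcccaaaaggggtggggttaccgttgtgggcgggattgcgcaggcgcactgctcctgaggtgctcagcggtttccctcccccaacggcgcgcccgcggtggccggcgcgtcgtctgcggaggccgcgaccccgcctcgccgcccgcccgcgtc
Ovol2 (chr2:144331313-144331612, minus strand): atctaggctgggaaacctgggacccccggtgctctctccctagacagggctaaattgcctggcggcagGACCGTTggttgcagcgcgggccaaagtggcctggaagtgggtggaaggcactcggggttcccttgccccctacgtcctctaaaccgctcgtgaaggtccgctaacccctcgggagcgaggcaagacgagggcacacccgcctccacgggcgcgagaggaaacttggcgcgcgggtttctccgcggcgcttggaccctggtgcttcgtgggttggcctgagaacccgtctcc
Sox30 (chr11:45980060-45980359, plus strand): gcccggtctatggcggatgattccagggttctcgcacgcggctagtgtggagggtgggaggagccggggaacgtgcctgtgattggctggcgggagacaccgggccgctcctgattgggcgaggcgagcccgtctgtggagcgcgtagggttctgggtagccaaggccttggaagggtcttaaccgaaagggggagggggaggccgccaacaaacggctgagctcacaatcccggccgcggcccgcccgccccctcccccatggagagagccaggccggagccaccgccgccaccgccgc
Taf7l (chrX:134476441-134476740, minus strand): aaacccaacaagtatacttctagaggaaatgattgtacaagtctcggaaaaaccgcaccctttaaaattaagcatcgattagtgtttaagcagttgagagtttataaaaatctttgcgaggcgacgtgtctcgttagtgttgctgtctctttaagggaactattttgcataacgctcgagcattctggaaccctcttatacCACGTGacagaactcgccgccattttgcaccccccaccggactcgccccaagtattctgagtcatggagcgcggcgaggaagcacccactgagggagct

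The AACNGNC match began 142 bases before the annotated start in Tcfl5 and 182 bases before it in Ovol2. Both protein-coding Ovol2 transcripts of GENCODE, however, start upstream of that RefSeq start, by 784 and 333 bases. The Ovol2 match thus lies downstream of their starts. It precedes only the start of a processed Ovol2 transcript, 36 bases after the RefSeq start. AACNGNC was present in 2 of the 6 member windows and in 32.8% of 32851 mouse windows of the same length. The E-box of Taf7l began 49 bases before the start, and 7.15% of all windows held one. Taf7l also held TATAAA on both strands, 148 to 150 bases before the start, against 13.6% of all windows with at least 1 match. The CREM motifs TGACGTCA (1.79% of all windows) and TGACG (20.8%) were in none of the 6, and Mybl2, Tbpl1 and Sox30 held none of the 5 motifs. The windows of Tcfl5 and Sox30 were 73.0% and 70.0% G + C, higher than 94.3% and 90.4% of all windows, while that of Taf7l was 47.0%, below the median of 52.7%. A match describes letters in the window and not a bound site.

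Across the 28 mice, all 10 members differed with age (limma F test over the 6 ages, Benjamini-Hochberg adjusted p from 6.12e-17 for Sox30 to 0.00408 for Taf4b), in a table where 77.6% of the genes did. At 18 dpp against 8 dpp, 7 members were higher, against 31.8% of the 20368 genes, and 3 were lower, against 36.3%. Of these 7, Sox30, Ovol1 and Ovol2 reached 3 TPM only from 12, 14 and 16 dpp on and had to be higher late to be tested. Their calls and p-values are a description, here and at the steps below. The step from 8 to 10 dpp passed the test in 0 of the members (0.977% of genes higher and 0.226% lower), although 2337 genes had an unadjusted p under 0.05, Mybl2 among them. From 10 to 12 dpp, 2 members were higher (12.0% of genes) and 0 lower (9.39%). From 12 to 14 dpp none of the 10 passed (0.157% higher, 0.0147% lower). Here 1962 genes had an unadjusted p under 0.05, and Tcfl5 and Sox30 were 2 of them. From 14 to 16 dpp, 6 members were higher (12.7% of genes) and 0 lower (11.3%). From 16 to 18 dpp, 7 were higher (23.4%) and 3 lower (30.6%), although Taf4b did not pass at this step with median-of-ratios factors (-0.13, adjusted p = 0.155) and Taf7l was at -0.00 ± 0.11 within mice 4 and 5. The split of calls over all genes moved with the scaling: the share of calls that were higher was 53.1%, 43.4% and 46.7% at 16 against 14, 18 against 16 and 18 against 8 dpp, became 66.3%, 63.1% and 55.9% with median-of-ratios factors, and 41.6%, 37.8% and 37.7% with quantile normalization. From 12 to 14 dpp that share was 91.4% of 35 calls, and 81.3% with median-of-ratios factors. The direction of each of the 10 members at 18 against 8 dpp was the same under both, and Taf4b lost its call there with median-of-ratios factors.

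**Figure D1:**
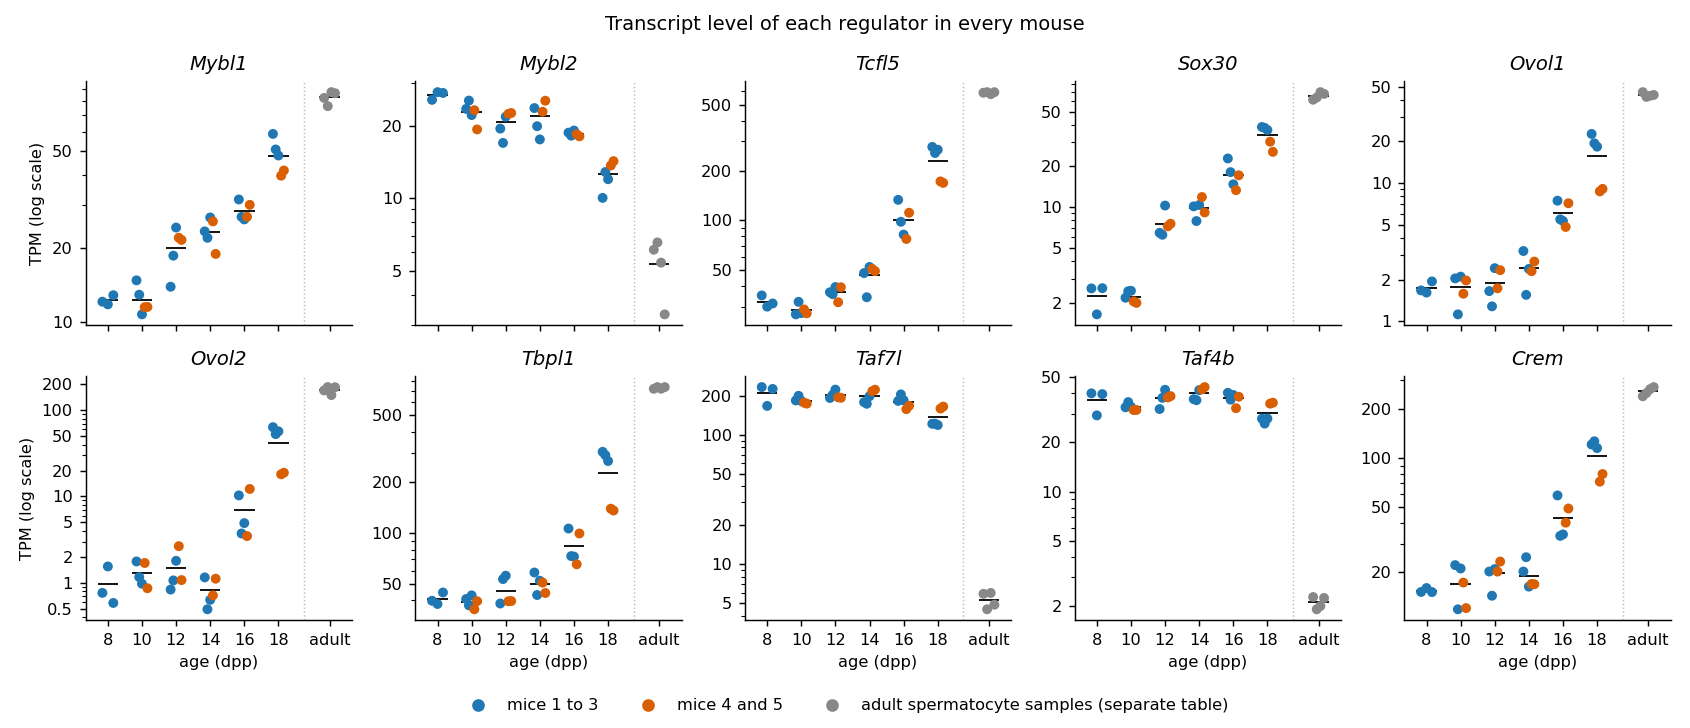
TPM on a log scale (y) against age in dpp (x) for each of the 10 regulators, 1 point per mouse, with mice 1 to 3 in blue, mice 4 and 5 in orange, the adult samples in grey and the mean as a bar. The 7 rising genes climb from 12 or 16 dpp on and are highest in the adult samples, whereas Taf7l and Taf4b are near level until 16 dpp and lowest in the adult samples at 5.31 and 2.10 TPM on average.

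A few facts of the samples bear on these values. At 18 dpp mice 4 and 5 stood apart from mice 1 to 3: all 10 members had ranges that did not overlap between these sets, as did 57.9% of all genes, whereas at 16 dpp only Taf7l did (20.1% of genes). The summed TPM of 6 pachytene markers (Piwil1, Hspa2, Ldhc, Pgk2, Clgn and Hist1h1t) was 4880 to 5083 in mice 1 to 3 and 2774 to 2929 in mice 4 and 5 of that age. The cells were also mixed: the sum of 8 Sertoli markers went from 6772 to 7619 TPM at 8 dpp to 3220 to 4197 TPM at 18 dpp (1 higher, 7 lower). Clu made up most of that sum, with means of 5377 and 2899 TPM. The sum of 6 spermatogonium markers went from 520 to 611 TPM to 212 to 294 TPM between the same ages (0 higher, 6 lower). Markers of cells outside the tubule did not follow this fall as a group: 6 Leydig markers summed to 175 to 198 TPM at 8 dpp and 169 to 472 TPM at 18 dpp (3 higher, 0 lower), 5 macrophage markers to 30.5 to 41.6 TPM and 51.0 to 99.7 TPM (4 higher, 0 lower), and 5 peritubular markers to 1051 to 1160 TPM and 524 to 1034 TPM (0 higher, 1 lower). Less of a cell type and less RNA per cell cannot be told apart in such bulk samples, and the part of these changes in the results was not tested. Lastly, filtering mattered for some members, since the table holds genes at 3 TPM or more in at least 1 mouse. The other 7 members met this in all 28 mice, Sox30 only from 12 dpp on (20 mice), Ovol1 only from 14 dpp on (11 mice) and Ovol2 only at 16 and 18 dpp (10 mice), so these 3 had to be higher late to be tested at all. The same holds for Ccna1, Tdrd6, Gtf2a1l and Smcp, named below, which were under 3 TPM in every mouse of 8 and 10 dpp. TPM carries no read counts, so depth and counting error are unknown.

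**Figure D2:**
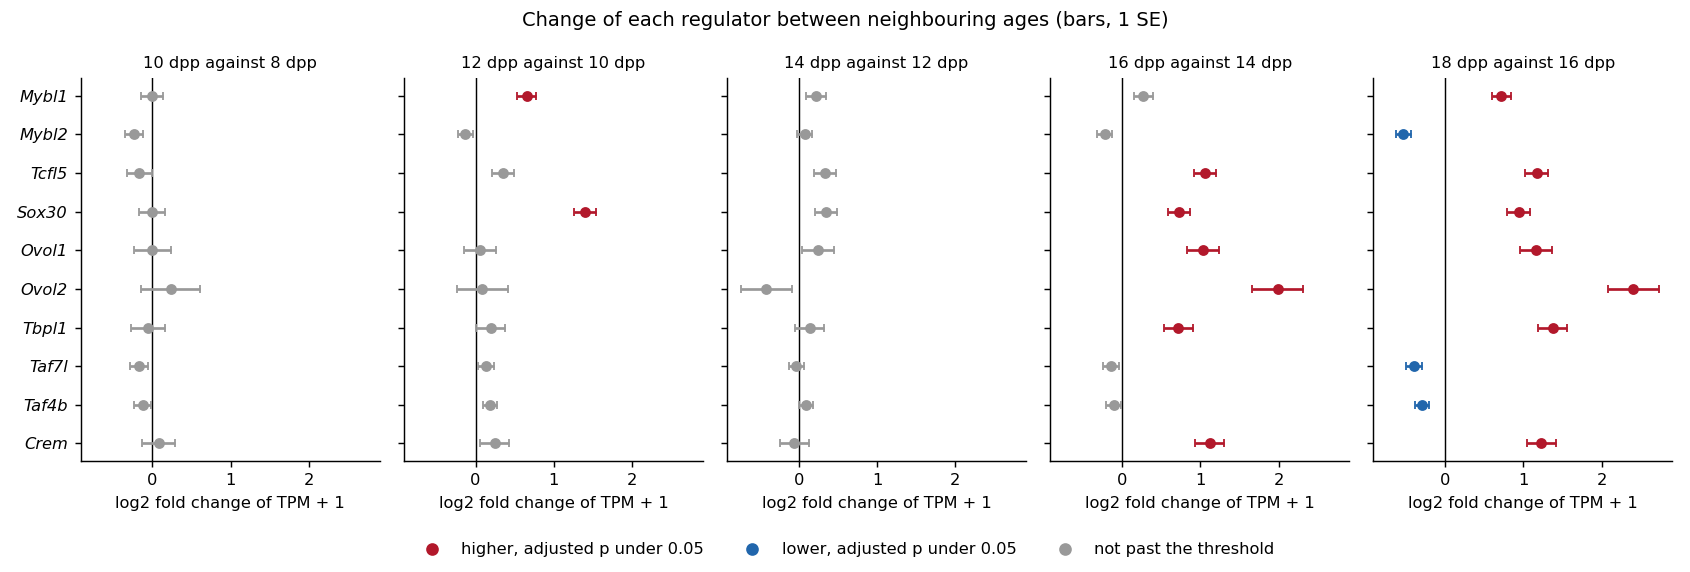
Log2 fold change of TPM + 1 (x, bars of 1 SE) of each regulator between neighbouring ages, from limma over the 28 mice, with red for higher and blue for lower at an adjusted p under 0.05 and grey for the rest. Sox30 and Mybl1 are the red points at 12 dpp against 10 dpp, and at 18 dpp against 16 dpp 7 points are red and 3 blue.

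Mybl1 (ENSMUSG00000025912, chromosome 1 of GRCm38 from 9667415 to 9700209, minus strand) had 12.1, 11.8 and 12.8 TPM in the 3 mice of 8 dpp. At 12 dpp its 5 mice had 13.9, 18.6, 24.3, 22.1 and 21.6 TPM. At 18 dpp they had 58.7, 50.7, 47.9, 39.6 and 41.6 TPM. At 12 dpp, 1 mouse overlapped the range of 10 dpp (10.7 to 14.8 TPM). Every mouse of 18 dpp was above every mouse of 16 dpp, as in 13.2% of all genes. Mybl1 rose from 10 to 12 dpp by 0.65 ± 0.12 (log2, SE; limma adjusted p = 0.000267) and from 16 to 18 dpp by 0.72 ± 0.12 (adjusted p = 2.66e-05). Between these, the steps to 14 and to 16 dpp were 0.22 ± 0.12 and 0.27 ± 0.12 and missed the threshold (adjusted p = 0.575 and 0.103). In adult spermatocytes the mean was 83.0 ± 4.87 TPM (SD, n = 4).

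Mybl2 (ENSMUSG00000017861, chromosome 2 from 163054687 to 163084688, plus strand), the relative that serves dividing cells with the MuvB complex, went the other way. Its level was 25.5, 27.5 and 27.3 TPM at 8 dpp. At 16 dpp the 5 mice were within 18.0 to 19.1 TPM. At 18 dpp they had 10.1, 12.9, 12.0, 13.7 and 14.3 TPM, all under the 16 dpp range, as in 12.4% of all genes. The step from 16 to 18 dpp was -0.53 ± 0.10 (adjusted p = 6.09e-05), and from 8 to 18 dpp it was -1.04 ± 0.11 (adjusted p = 4.64e-09). The adult mean was 5.37 ± 1.44 TPM (SD, n = 4). The log2 ratio of Mybl1 to Mybl2 therefore crossed 0 between the ages, with -1.16 to -1.02 at 8 dpp, -0.45 to 0.15 at 12 dpp, 0.44 to 0.73 at 16 dpp and 1.47 to 2.43 at 18 dpp. In the adult samples it was 3.35 to 4.33.

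Tcfl5 (ENSMUSG00000038932, chromosome 2 from 180621956 to 180642708, minus strand) had 35.3, 30.2 and 31.6 TPM in the mice of 8 dpp, and those of 14 dpp averaged 47.1 ± 7.26 TPM (SD, n = 5). At 16 dpp the mice had 133, 98.1, 82.1, 77.3 and 111 TPM. At 18 dpp they had 278, 255, 267, 172 and 168 TPM. Neither age overlapped the age before it. Every mouse was higher in 10.7% of all genes at 16 against 14 dpp and in 13.2% at 18 against 16 dpp. Tcfl5 rose by 1.06 ± 0.14 from 14 to 16 dpp (adjusted p = 2.39e-06) and by 1.17 ± 0.14 from 16 to 18 dpp (adjusted p = 1.40e-06). The adult level was 589 ± 7.65 TPM (SD, n = 4), the second highest of the 10 members. Tcfl5 shares part of its locus with Col9a3 on the opposite strand, and no strand protocol is named, so reads of that overlap may belong to either gene. The same limit holds for Tbpl1 (Slc2a12) and Crem (Gm6225), which also overlap an opposite-strand gene. Same-strand genes overlap Taf4b (AC133172.1), Mybl2 (Mir7003) and Tbpl1 (Mir7663).

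The known targets of MYBL1 were read beside it from a list of 7 genes: Ccna1, Piwil1, Mael, Tdrd5, Tdrd6, Tdrd9 and Mov10l1. All 7 rose from 8 to 18 dpp (31.8% of genes did), by a median of 3.09 (log2) against -0.09 for all genes tested, but Ccna1 and Tdrd6 had reached 3 TPM only from 16 and 14 dpp on and had to be higher late to be tested, so this count and median are a description. Of the 7, 6 were higher at 16 than at 14 dpp (12.7% of genes) and 6 at 18 than at 16 dpp (23.4%). Ccna1, the meiotic cyclin A, had 0 to 1.18 TPM at 8 dpp and 14.0 to 106 TPM at 18 dpp, a log2 change of 5.12 ± 0.49. Piwil1, the pachytene piRNA-binding protein and also one of the pachytene markers above, changed by 6.64 ± 0.25, and Tdrd6, a tudor protein of the chromatoid body, by 7.38 ± 0.36 (limma adjusted p for these 3 from 2.59e-17 to 4.87e-10). Mov10l1, the piRNA helicase, changed least, by 0.89 ± 0.11 from a level of 64.9 to 84.2 TPM. Of 6 tested relatives and MuvB partners, Lin9 (1.08 ± 0.11) and Lin52 (1.17 ± 0.11) rose, and Lin37, Lin54, Rbbp4 and Foxm1 lay between -0.11 and 0.21 without passing. Myb itself stayed at or under 0.70 TPM in each mouse and was not tested.

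**Figure D3:**
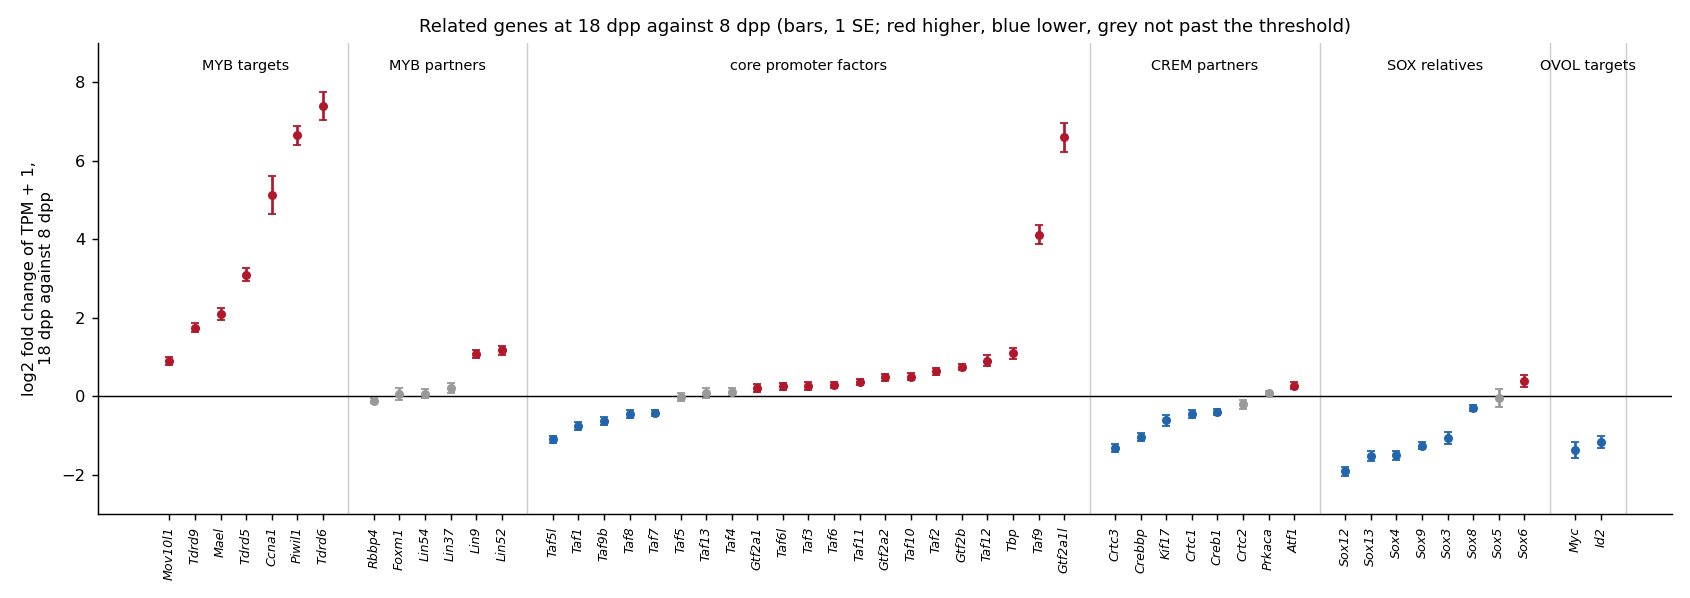
Log2 fold change of TPM + 1 at 18 dpp against 8 dpp (y, bars of 1 SE) for genes of the related lists (x), red where higher and blue where lower at an adjusted p under 0.05 and grey otherwise. All 7 MYB targets are red, from 0.89 for Mov10l1 to 7.38 for Tdrd6, whereas the core promoter factors and the partners of CREM hold both colours.

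Sox30 (ENSMUSG00000040489, chromosome 11 from 45980310 to 46017994, plus strand), a high mobility group factor required for spermatid genes, was at 1.64 to 2.55 TPM in the 8 mice of 8 and 10 dpp. At 12 dpp it had 6.48, 6.27, 10.3, 7.23 and 7.55 TPM. The 18 dpp mice had 38.6, 38.0, 36.6, 30.1 and 25.3 TPM. All mice of 12 dpp were above all mice of 10 dpp, as in 10.0% of all genes. The rise from 10 to 12 dpp was 1.40 ± 0.14 (limma adjusted p = 5.49e-08), that from 14 to 16 dpp 0.73 ± 0.14 (adjusted p = 0.000399) and that from 16 to 18 dpp 0.94 ± 0.14 (adjusted p = 7.57e-06). The step from 12 to 14 dpp, 0.35 ± 0.14, missed the threshold (adjusted p = 0.393). Since Sox30 passed the filter only from 12 dpp on, its p-values are a description. The adult mean was 65.3 ± 3.76 TPM (SD, n = 4). Among 8 SOX genes of the testis, 1, Sox6, rose (0.39 ± 0.15; 31.8% of all genes rose), and 6 fell (36.3%), with Sox12 at -1.91 ± 0.11 and Sox9, a Sertoli factor, at -1.26 ± 0.09. Sox5 was at -0.05 ± 0.23 and did not pass.

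Ovol1 (ENSMUSG00000024922, chromosome 19 from 5549136 to 5560646, minus strand), a zinc finger repressor of germ and epithelial cells, had 1.12 to 2.42 TPM at 8 to 12 dpp. At 16 dpp it had 7.45, 5.46, 5.31, 4.81 and 7.14 TPM. In those of 18 dpp it was at 22.7, 19.4, 18.34, 8.70 and 9.07 TPM. The mice fell into non-overlapping ranges by age from 14 dpp on. Over all genes, 10.7% had every mouse higher at 16 than at 14 dpp, and 13.2% at 18 than at 16 dpp. Ovol1 rose by 1.04 ± 0.21 from 14 to 16 dpp (adjusted p = 0.000494) and by 1.16 ± 0.21 from 16 to 18 dpp (adjusted p = 4.80e-05). Ovol1 passed the filter only from 14 dpp on, so these p-values are a description. The adult mean was 43.5 ± 1.49 TPM (SD, n = 4).

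Ovol2 (ENSMUSG00000037279, chromosome 2 from 144305175 to 144332146, minus strand), its close relative, had the largest change of the 10. It was at 0.49 to 2.65 TPM in the 18 mice of 8 to 14 dpp. At 16 dpp it had 10.3, 3.72, 4.91, 3.47 and 12.2 TPM. At 18 dpp it had 63.8, 53.0, 57.1, 18.1 and 18.9 TPM. The rise from 14 to 16 dpp was 1.99 ± 0.33 (adjusted p = 4.40e-05) and that from 16 to 18 dpp 2.40 ± 0.33 (adjusted p = 2.67e-06). Mean TPM at 18 dpp was 44.0 times that at 8 dpp, a ratio against about 1 TPM. Because Ovol2 passed the filter only through mice of 16 and 18 dpp, its p-values are a description. The adult mean was 173 ± 16.9 TPM (SD, n = 4). The log2 ratio of Ovol1 to Ovol2 was 0.04 to 0.90 at 8 dpp, -0.06 to 0.68 at 10 dpp and -0.42 to 0.69 at 12 dpp. It was above 0 in every mouse of 14 dpp (0.78 to 1.06), -0.70 to 0.45 at 16 dpp and below 0 in every mouse of 18 dpp (-1.59 to -0.98). The adult samples were at -2.12 to -1.79. Up to 14 dpp neither gene passed 3.22 TPM, so the ratios of those ages depend much on the 1 added to TPM. Of genes named as OVOL targets, Id2 (-1.16 ± 0.15) and Myc (-1.36 ± 0.20) fell from 8 to 18 dpp, as did 36.3% of all genes. A link of these falls to Ovol1 or Ovol2 was not tested. Antisense or opposite-strand genes overlap both Ovol1 and Ovol2 in the annotation.

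Tbpl1 (ENSMUSG00000071359, chromosome 10 from 22703879 to 22731938, minus strand), the TBP-like factor of spermatids, had 39.7, 38.0 and 44.5 TPM at 8 dpp. At 16 dpp it had 107, 73.1, 72.6, 65.4 and 99.6 TPM. The mice of 18 dpp reached 304, 291, 268, 140 and 136 TPM. Mice 1 to 3 of 18 dpp had on average 2.08 times the level of mice 4 and 5. Both sets were above every mouse of 16 dpp, as in 13.2% of all genes. Tbpl1 rose by 0.72 ± 0.19 from 14 to 16 dpp (adjusted p = 0.00550) and by 1.38 ± 0.19 from 16 to 18 dpp (adjusted p = 2.58e-06). In adult spermatocytes it was the most abundant of the 10, at 729 ± 9.72 TPM (SD, n = 4).

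Tbp, the general TATA-binding protein, rose as well, from 50.9 to 66.0 TPM in the mice of 8 dpp to a mean of 129 ± 28.8 TPM in the 5 of 18 dpp (SD), a log2 change of 1.09 ± 0.14 against 2.37 ± 0.21 for Tbpl1. The log2 ratio of Tbpl1 to Tbp went from -0.72 to -0.41 at 8 dpp to 0.40 to 1.00 at 18 dpp, and was 1.31 to 1.41 in the adult samples. The transcript level of Tbpl1 was above that of Tbp in each mouse of 18 dpp.

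Taf7l (ENSMUSG00000009596, chromosome X from 134460118 to 134476490, minus strand) is the germ cell form of TAF7 and the only X-linked member. It was the most abundant of the 10 at 8 dpp, with 234, 167 and 226 TPM. At 16 dpp it had 183, 205, 185, 158 and 167 TPM. Those of 18 dpp had 122, 122, 119, 159 and 165 TPM. The mice of 8 and 18 dpp did not overlap, where 32.0% of all genes were lower in every mouse of 18 dpp. The highest mice of 18 dpp, however, lay within the range of 16 dpp. Taf7l fell by 0.39 ± 0.10 from 16 to 18 dpp (adjusted p = 0.00169), with -0.65 ± 0.09 within mice 1 to 3 and -0.00 ± 0.11 within mice 4 and 5. Its adult mean was 5.31 ± 0.753 TPM (SD, n = 4), against 209 ± 36.4 TPM at 8 dpp. Taf7, the autosomal form, also fell between 8 and 18 dpp (-0.43 ± 0.08), so the log2 ratio of the pair stayed between 1.32 and 2.05 in the juvenile mice. In the adult samples it was -2.16 to -1.81, with Taf7 the higher of the 2.

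Taf4b (ENSMUSG00000054321, chromosome 18 from 14783245 to 14900359, plus strand), a TFIID subunit of germ line stem cells and the ovary, changed least. It had 39.9, 29.3 and 39.5 TPM at 8 dpp. At 18 dpp it had 27.9, 26.1, 27.99, 34.5 and 35.0 TPM, and the ages overlapped. The difference was -0.25 ± 0.11 (adjusted p = 0.0413), and this call was lost with median-of-ratios scaling (-0.08, adjusted p = 0.458), with the 2 ages compared alone (adjusted p = 0.162), and without any 1 of 5 mice: mouse 1 or 3 of 8 dpp, or mouse 1, 2 or 3 of 18 dpp (adjusted p = 0.083 to 0.217). The step from 16 to 18 dpp, -0.29 ± 0.09 (adjusted p = 0.00845), was also lost with that scaling (-0.13, adjusted p = 0.155). In the adult samples it was at 2.10 ± 0.177 TPM (SD, n = 4). Taf4, its general counterpart, did not pass (0.10 ± 0.10), and the log2 ratio of Taf4b to Taf4 was 0.28 to 0.51 at 8 dpp, -0.04 to 0.15 at 18 dpp and -2.46 to -1.91 in the adult samples.

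**Figure D4:**
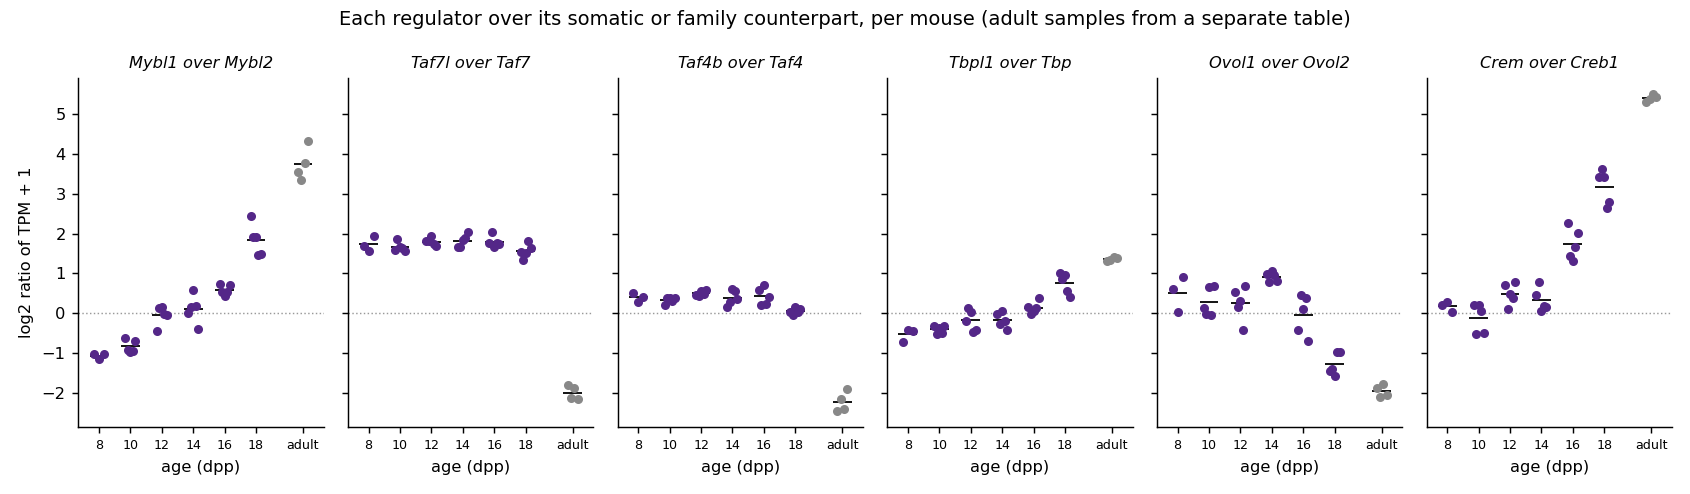
Log2 ratio of TPM + 1 (y) of 6 regulators to a somatic or family counterpart against age in dpp (x), 1 point per mouse or adult sample, with the mean as a bar. The ratios for Mybl1, Tbpl1 and Crem climb with age to 18 dpp, those for Taf7l and Taf4b are far lower in the adult samples, and that of Ovol1 to Ovol2 turns from above to below 0 between 14 and 18 dpp.

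Of 21 tested genes of the general machinery (TBP, TAF subunits, TFIIA and TFIIB), 13 rose (31.8% of all genes), 5 fell (36.3%) and 3 did not pass at 18 against 8 dpp, with a median of 0.26 (log2). The largest rises were those of Gtf2a1l, the testis TFIIA that partners TBPL1, with 0 to 0.14 TPM at 8 dpp and 50.9 to 150 TPM at 18 dpp (6.59 ± 0.37), a gene tested only because it was high late, and of Taf9 (4.11 ± 0.24). Taf9 overlaps Ak6 on the same strand, so their reads may be divided unreliably. Taf5l fell by 1.10 ± 0.09, the largest fall of the list. Tbpl2, the oocyte TBP, was listed at 0 TPM in all mice and adult samples.

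Crem (ENSMUSG00000063889, chromosome 18 from 3266048 to 3337748, minus strand) encodes activators and repressors that differ by start site and exons. Its gene level was 15.2, 16.0 and 15.2 TPM at 8 dpp. At 16 dpp it had 59.1, 33.4, 34.1, 40.3 and 49.2 TPM. Levels of 18 dpp were 121, 127, 115, 71.7 and 79.9 TPM. The ages of 14, 16 and 18 dpp did not overlap. Of all genes, 10.7% were higher in every mouse of 16 than of 14 dpp, and 13.2% of 18 than of 16 dpp. Crem rose by 1.12 ± 0.18 from 14 to 16 dpp (adjusted p = 4.76e-05) and by 1.23 ± 0.18 from 16 to 18 dpp (adjusted p = 7.20e-06), and its adult mean was 256 ± 14.7 TPM (SD, n = 4). The log2 ratio of Crem to Creb1, the somatic relative, was 0.04 to 0.27 at 8 dpp, 1.30 to 2.25 at 16 dpp, 2.64 to 3.63 at 18 dpp and 5.30 to 5.50 in the adult samples. Creb1 fell over the same ages (-0.39 ± 0.08).

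The transcript table holds 41 Crem transcripts. RSEM divides the reads among them by a model, and single isoforms of so many varied from mouse to mouse more than the gene did. Summed by annotated start, from the most upstream, all but 2 without a matched annotation formed 6 groups. Group 1, at the gene's outermost start (3337063 to 3337748), accounted for 44.4% ± 5.78 of Crem TPM in the 3 mice of 8 dpp and 17.6% ± 4.30 in the 5 mice of 18 dpp (± SD), although its level went from 6.87 ± 1.08 to 17.5 ± 3.78 TPM. Group 5, at 3299452 to 3299559, had 0.51, 0 and 0.54 TPM at 8 dpp and 0.90 to 4.66 TPM at 14 dpp. At 16 dpp it had 18.0, 12.8, 8.82, 5.48 and 25.3 TPM. At 18 dpp it had 43.8, 62.9, 54.2, 37.7 and 38.8 TPM, or 46.8% ± 6.29 of the gene. The mice of 14, 16 and 18 dpp did not overlap in group 5. Group 3 (3325474 to 3325478) averaged 0.52 TPM in the mice of 8 dpp, and its range was 3.29 to 20.7 TPM in those of 16 dpp and 6.42 to 29.6 TPM in those of 18 dpp, while group 4 (3309723 to 3309900) was listed at 0 at 8 dpp and had 0 to 28.6 TPM at 18 dpp. Group 2 (3327507 to 3327591) had 0.03 to 7.88 TPM at 18 dpp. Group 6, the innermost start (3281078 to 3281769), was at 4.38 to 6.71 TPM at 8 dpp and 0 to 9.25 TPM at 18 dpp. These sums were formed after the values had been seen and were not tested.

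**Figure D5:**
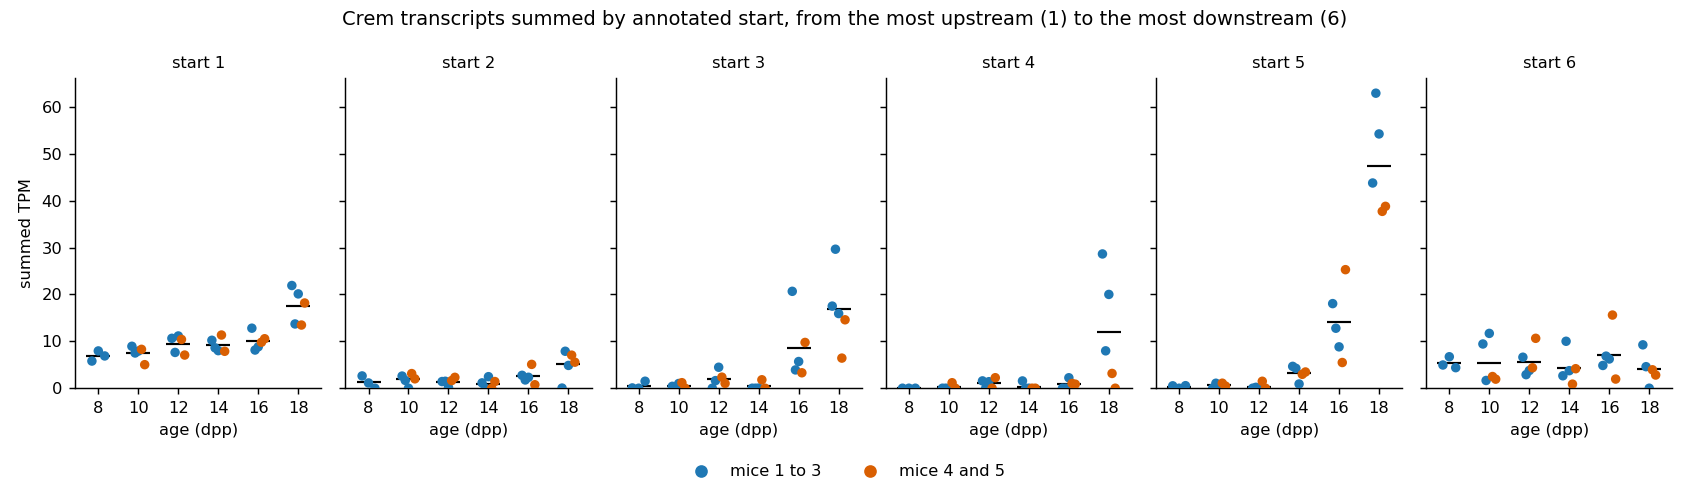
Summed TPM (y) of Crem transcripts that share an annotated start, from the most upstream (1) to the innermost (6), against age in dpp (x), 1 point per mouse with mice 1 to 3 in blue and mice 4 and 5 in orange, and the mean as a bar. Group 5 climbs from at most 4.66 TPM at 14 dpp to 37.7 TPM or more at 18 dpp, groups 3 and 4 are higher at 18 dpp than at 8 dpp on average with a wide spread, and group 6 shows no such climb.

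Of the 53 member transcripts tested (those at 1 TPM or more in at least 3 mice), 19 rose from 8 to 18 dpp, in a table with 17.3% of transcripts higher, and 3 fell, against 19.0% lower. Of the risers, 8 were Crem transcripts, and 4 of these (Crem-204, Crem-207, Crem-210 and Crem-226) start in group 5. Crem-207 had 0 TPM in all mice of 8, 10 and 12 dpp and 14.3 to 24.0 TPM at 18 dpp (4.22 ± 0.57, limma adjusted p = 8.78e-07). Crem-204 had 0 TPM at 8 and 10 dpp and 5.49 to 23.8 TPM at 18 dpp (3.97 ± 0.40, adjusted p = 7.54e-09). Crem-207 and Crem-204 reached 1 TPM only in mice of 14 dpp or older, and Crem-226 and Crem-222 only at 16 and 18 dpp. Before 18 dpp, Crem-208 reached it only in mouse 3 of 8 dpp (1.49 TPM) and mouse 5 of 12 dpp (1.02 TPM). That was fewer than the 3 mice needed. These transcripts had to be higher late to be tested. Their p-values, and the count of 19 risers that includes them, are therefore a description.

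Shares of a gene's TPM at 16 and 18 dpp against 8 and 10 dpp were tested for 26 member transcripts. Only 2 passed both the test and the 20-point limit, both of Tbpl1, where 2.39% of all transcripts tested did. Tbpl1-201 went from 51.1% to 76.0% of the gene (24.9 ± 2.84 points, SE; limma adjusted p = 7.05e-07). Its level was 20.9, 17.1 and 23.2 TPM at 8 dpp and 269, 259, 229, 110 and 111 TPM at 18 dpp. Tbpl1-202 went from 46.5% to 23.0% (-23.6 ± 3.99 points, adjusted p = 0.000142), with 18.8 to 20.9 TPM at 8 dpp and 25.6 to 39.0 TPM at 18 dpp. Both code for protein and both rose in level (3.10 ± 0.30 and 0.65 ± 0.12). The annotated start of Tbpl1-201 is 491 bases upstream of that of Tbpl1-202, and the RefSeq window with none of the 5 motifs starts at the latter. For Mybl1, transcript 201 went from 59.1% to 72.4% of the gene, a change of 13.4 ± 2.82 points that passed the test (adjusted p = 0.00144) but not the 20-point limit. No Crem transcript reached 20 points, the largest being Crem-204 from 0% to 15.8%. All 3 Ovol2 transcripts rose, and the most abundant, Ovol2-201 with 20.6 ± 10.0 TPM at 18 dpp (SD, n = 5), starts 784 bases upstream of the start in the window printed above. Before 16 dpp, the other protein-coding Ovol2 transcript reached 1 TPM only in mouse 1 of 14 dpp (1.15 TPM). The processed one reached it only in mouse 3 of 12 dpp (1.35 TPM). Both had to be higher late to be tested, so their rises are a description.

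The split into mice 1 to 3 and mice 4 and 5 was made after the 18 dpp values had been seen. The numbers also do not pair mice of 16 dpp with mice of 18 dpp. Calls within each set are therefore a description and no support for the calls over all mice. Within mice 1 to 3, the step from 16 to 18 dpp gave the same 7 members higher (23.8% of genes) and the same 3 lower (34.3%). Within mice 4 and 5 it gave 4 members higher, Tcfl5, Tbpl1, Sox30 and Ovol2 (6.07% of genes), and 0 lower (2.84%), where limma over all genes set the adjusted p from 0.0162 for Tcfl5 to 1 for Taf7l. Mean TPM at 18 dpp in mice 1 to 3 over that in mice 4 and 5 was 1.29 for Mybl1, 1.57 for Tcfl5, 1.60 for Crem, 2.08 for Tbpl1, 1.36 for Sox30, 2.27 for Ovol1, 3.14 for Ovol2, 0.833 for Mybl2, 0.744 for Taf7l and 0.786 for Taf4b. In 3 mice of each age alone (mice 1 to 3), each of the 10 members kept its call and direction at 18 against 8 dpp. The difference between the 2 sets of mice was not tested.

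At 18 dpp the 10 members lay in the order Tcfl5 (228 TPM), Tbpl1 (228 TPM), Taf7l (137 TPM), Crem (103 TPM), Mybl1 (47.7 TPM), Ovol2 (42.2 TPM), Sox30 (33.7 TPM), Taf4b (30.3 TPM), Ovol1 (15.6 TPM) and Mybl2 (12.6 TPM). TPM is scaled to length, so these levels can be set side by side. The ranges of neighbours overlapped except between Crem and Mybl1 and between Taf4b and Ovol1. At 8 dpp Taf7l came first and Ovol2 last, at 0.96 ± 0.51 TPM (SD, n = 3).

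The adult samples were quantified in a separate table, so levels are given side by side with no test. Mean TPM there over that at 18 dpp was 1.74 for Mybl1, 1.94 for Sox30, 2.49 for Crem, 2.58 for Tcfl5, 2.78 for Ovol1, 3.20 for Tbpl1 and 4.11 for Ovol2. It was 0.427 for Mybl2, 0.0695 for Taf4b and 0.0386 for Taf7l. Markers of other cell types were present in the adult samples: 6 spermatid markers (Prm1, Prm2, Tnp1, Tnp2, Odf1 and Acrv1) summed to 936 to 1260 TPM, against 0 to 8.61 TPM at 18 dpp, and the Sertoli markers to 292 to 430 TPM. Which cells these transcripts came from was not tested. Of 9 spermatid genes known to need CREM, TBPL1 or SOX30, 8 did not reach 3 TPM in any juvenile mouse and were not tested. The remaining one, Smcp, was listed at 0 in every mouse of 8 to 16 dpp and had 0 to 3.28 TPM at 18 dpp, where 1 mouse carried it past the filter. Prm1 and Tnp1, for protamine 1 and transition protein 1, were at 209 ± 26.4 and 273 ± 40.0 TPM in the adult samples (SD, n = 4).

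The genes whose log2(TPM + 1) followed each member most closely over the 28 mice are given as a description, since points share age. Sox30 was followed by Spo11, which makes meiotic double-strand breaks (Pearson r = 0.993), and Efcab2 (0.991). Tcfl5 was followed by Rangrf (0.995) and Crat (0.994), Tbpl1 by Gkap1 (0.992) and Ncbp1 (0.990), and Mybl1 by Srpk1 (0.979) and Ulk2 (0.979). Crem was followed by Rassf1 (0.978) and Ptdss2 (0.977), Ovol1 by Acrbp, an acrosome protein (0.987), and Ak7 (0.986), and Ovol2 by Rasl2-9 (0.986) and Atxn7l3b (0.985). For the falling genes the closest were Pramef12 (0.952) and Ldb1 (0.949) for Mybl2, Fmr1 (0.930) and 8030474K03Rik (0.929) for Taf7l, and Zcwpw1 (0.891) and Pak1 (0.883) for Taf4b. Among the members, Mybl1 and Sox30 had r = 0.972, which was 0.626 once age means were subtracted. For Tbpl1 and Ovol2 these values were 0.962 and 0.751.

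Of 8 tested relatives and partners of CREM, 5 fell (36.3% of all genes), 1 rose (31.8%) and 2 did not pass at 18 against 8 dpp (median -0.42, log2). Crebbp, a coactivator with acetyltransferase activity, changed by -1.04 ± 0.10, Crtc3 by -1.32 ± 0.11 and Kif17, a kinesin that moves the CREM coactivator ACT, by -0.61 ± 0.15. Fhl5, which codes for ACT, was at or under 2.13 TPM in each juvenile mouse and at 23.4 ± 7.72 TPM in the adult samples (SD, n = 4). Atf1 rose by 0.27 ± 0.08.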

How the data were processed

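Germ cell poly(A) RNA of 28 juvenile mice and 4 adult samples was sequenced. The authors aligned reads with Bowtie 1.0.0 to an mm10 transcriptome joined with noncoding and piRNA precursor sequences and estimated abundance with RSEM 1.2.8. The authors deposited TPM values, abundances scaled to transcript length and library, for juvenile transcripts and for the adult genes. The juvenile gene table was deposited by the authors as a score, found here to equal exp(log2(TPM + 1)) - 1, and was turned back to TPM; all 10 members then matched the sums of their transcripts within 0.2 TPM.

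Values were tested on log2(TPM + 1), a scale that understates changes of low genes, with limma 3.58.1 in R 4.3.3 (1 mean per age, all 28 mice, Benjamini-Hochberg adjustment over 20368 genes, threshold 0.05). Transcripts needed 1 TPM in 3 mice. Transcript shares were tested for genes at a mean of 3 TPM in both sets of ages and transcripts at 1 TPM in either, and were called from 20 points on. On simulated data for 18 against 8 dpp with 200 of 20368 genes changed by 1 (log2), 85.5% were recovered and 5.53% of calls were unchanged genes. The noise was drawn independently for each gene, with the same spread at all ages. In the data 31.8% of genes were called higher and 36.3% lower, so these rates do not describe the calls made there. P-values measure the spread between mice. TPM keeps no counts, so depth is unknown. Members and lists were chosen with earlier results of these data known. Named genes were the members, their transcripts at a mean of 1 TPM or more, the 2 most correlated genes for each, the ratio partners and listed relatives that changed by 1 or more (log2); Taf4, Mov10l1, Kif17, Atf1, Sox6, Sox5, Fhl5, Smcp, Prm1, Tnp1 and the MuvB genes that did not pass were named after their values were seen. The 13 library indexes of 8 to 12 dpp recur at 14 to 18 dpp, so that these could not all share 1 pool. The comparison within mouse sets and the Crem sums were added after seeing the data. Gene names came from GENCODE on GRCm38.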

Additional observations from a re-analysis of the deposited data

Results flagged for a closer look

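Among 60 sets of 5 or 4 values tested (the 10 members at 5 ages and in the adult samples), 1 held a mouse far from the rest of its age: Tcfl5 was at 34.42 TPM in mouse 2 of 14 dpp, while the next lowest mouse of that age had 48.1 TPM. Chance gives such a value in about 1 of 20 groups.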

How the results depend on the processing

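No called change of a member turned its direction under any alternative run. Apart from the comparison within mice 4 and 5, where 4 of the 10 members passed as given above, calls were lost for Taf4b alone: for Taf4b, 18 dpp against 8 dpp as given above and with no filter on low genes (adjusted p = 0.0812), at 18 against 16 dpp, and for Taf4b, any difference among the 6 ages, with median-of-ratios factors (adjusted p = 0.0667). The 35 calls at 14 against 12 dpp became 9 with a pseudocount of 3, 7 with no filter, 16 with median-of-ratios factors, 12 with quantile normalization, 1 in mice 1 to 3 alone and 6 with the 2 ages alone; leaving out 1 mouse gave 2 (without mouse 4 of 12 dpp) to 129 (without mouse 3 of 12 dpp). The 245 calls at 10 against 8 dpp became 129 with the 2 ages alone and 106 (without mouse 1 of 8 dpp) to 288 with 1 mouse left out. Of transcript share, 16 and 18 dpp against 8 and 10 dpp, the 630 calls became 1890 with a limit of 10 points and 410 with a gene mean of 10 TPM.

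With mouse number as a replicate block, calls at 10 against 8 dpp became 158, and 13952 genes were called for 18 dpp against 8 dpp. The numbers are those of the sample descriptions, and the titles number mice 4 and 5 of 14 dpp as 6 and 7. The numbers did not pair the mice: the deviations of 65 same-numbered pairs correlated at -0.248 to 0.253, and 9 of 28 mice correlated best with their own number. RSEM's division of reads among isoforms limits the Crem values.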
